A study of Mus musculus with 24 samples.

Results

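The 10 genes described here serve amino acid transport across the plasma membrane and were followed in mouse macrophages kept in 4 media with and without lipopolysaccharide (LPS, the bacterial ligand of the receptor Tlr4). They are Slc7a5, Slc3a2, Slc7a6, Slc7a7, Slc7a1, Slc1a4, Slc1a5, Slc38a1, Slc38a2 and Slc6a9. The genes are a list of named carriers chosen with earlier results of these data known, and each is read from the probe set that names only that gene and has the highest mean over all arrays. They are 10 of 11785 genes that passed the filter on low values, out of 18193 genes with such a probe set. None of the 10 owed its place to a single group, since each lay above the filter on all 24 arrays.

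The cells were bone marrow-derived macrophages of C57Bl/6 mice, which are macrophages grown from marrow cells in culture. After a night in plain medium with glucose and glutamine they were washed and given fresh medium holding no serum, or 5% fetal calf, mouse or human serum that had been heated at 56 °C for 30 min against complement. Each of these media came as a control and with LPS at 25 ng/ml, and all cells were harvested after 4 h, so that even the no serum control had gone through the same wash and change of medium. The 8 groups hold 3 arrays each, 1 from each of the replicate experiments G, H and I, and the labels do not say whether these used different mice, so p-values measure the spread between experiments. The labels name 1 supplier for each serum and give no lots, so a difference between sera is one between these materials.

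Most amino acids cross the cell membrane only through carriers. Slc3a2 (4F2hc, CD98) is the heavy chain that brings several light chains to the surface. With Slc7a5 (LAT1) it exchanges large neutral amino acids such as leucine for glutamine, and with Slc7a6 and Slc7a7 (y+LAT2 and y+LAT1) it exchanges cationic amino acids for neutral ones. Slc7a1 (CAT1) brings in arginine and lysine on its own. Slc1a4 (ASCT1) and Slc1a5 (ASCT2) exchange alanine, serine, cysteine or glutamine, Slc38a1 and Slc38a2 (SNAT1 and SNAT2) take up glutamine and other small neutral amino acids with sodium, and Slc6a9 (GLYT1) takes up glycine. Several of these genes are known targets of Atf4, the transcription factor of the amino acid response, and macrophages use arginine and glutamine when they are activated.

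The arrays answered to the treatment, with Tnf higher after LPS by 2.96 to 4.96 on the log2 scale in the 4 media. Replicates correlated at 0.983 to 0.992 over all genes and array medians lay between 5.04 and 5.13. All 8 macrophage markers were above the filter on all arrays, with group means of their average between 11.27 and 11.62. Below the filter on every array were 3 of 4 T cell markers, 2 of 3 B cell markers, 3 of 3 erythroid markers and 4 of 5 fibroblast markers. Above it on every array were 3 of 5 neutrophil markers and 2 of 5 megakaryocyte markers, and the group means of these lists ran from 5.86 to 6.40 and from 6.61 to 7.14. Their part in the results was not tested. Fewer cells of a type and less RNA per cell cannot be told apart in such bulk samples.

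Some calf serum arrays stood apart for these genes. The calf serum array with LPS of experiment H was below both of its group mates for 8 of the 10 genes, with a median difference of -0.43 from their mean, and its mean correlation with them over all genes, 0.983, was the lowest of the 24 arrays. The calf serum control of experiment H lay 0.16 above its mates by the same measure, and the labels give it the array batch of experiment G. For the results on calf serum that move most, the value without one of these arrays is given as well. Other arrays also lay off their group. The calf serum array with LPS of experiment I was above both mates for 7 of the 10 genes (median 0.33). The no serum control of experiment H was below both mates for 8 of the 10 genes (median -0.18). The no serum control of experiment I was above both for 6 (0.21), and the calf serum control of experiment G lay at -0.23.

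Without serum, LPS raised 6 of the 10 genes and lowered none: Slc7a7, Slc7a5, Slc38a1, Slc7a1, Slc38a2 and Slc3a2. A gene is called higher or lower when the adjusted p of limma's moderated test, over all 11785 genes, is under 0.05, and of all genes 19.8% were called higher and 39.1% lower in this comparison. In calf serum 6 rose and 2 fell (20.8% and 37.8% of all genes), in mouse serum 3 rose and 1 fell (17.8% and 33.8%), and in human serum 2 rose and 3 fell (18.4% and 35.5%). The median difference over the 10 genes was 0.38, 0.31, 0.01 and -0.08 in that order of media, beside -0.19, -0.17, -0.15 and -0.16 for all genes tested. Slc7a7 and Slc38a1 were the members called higher in each of the 4 media.

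**Figure D1:**
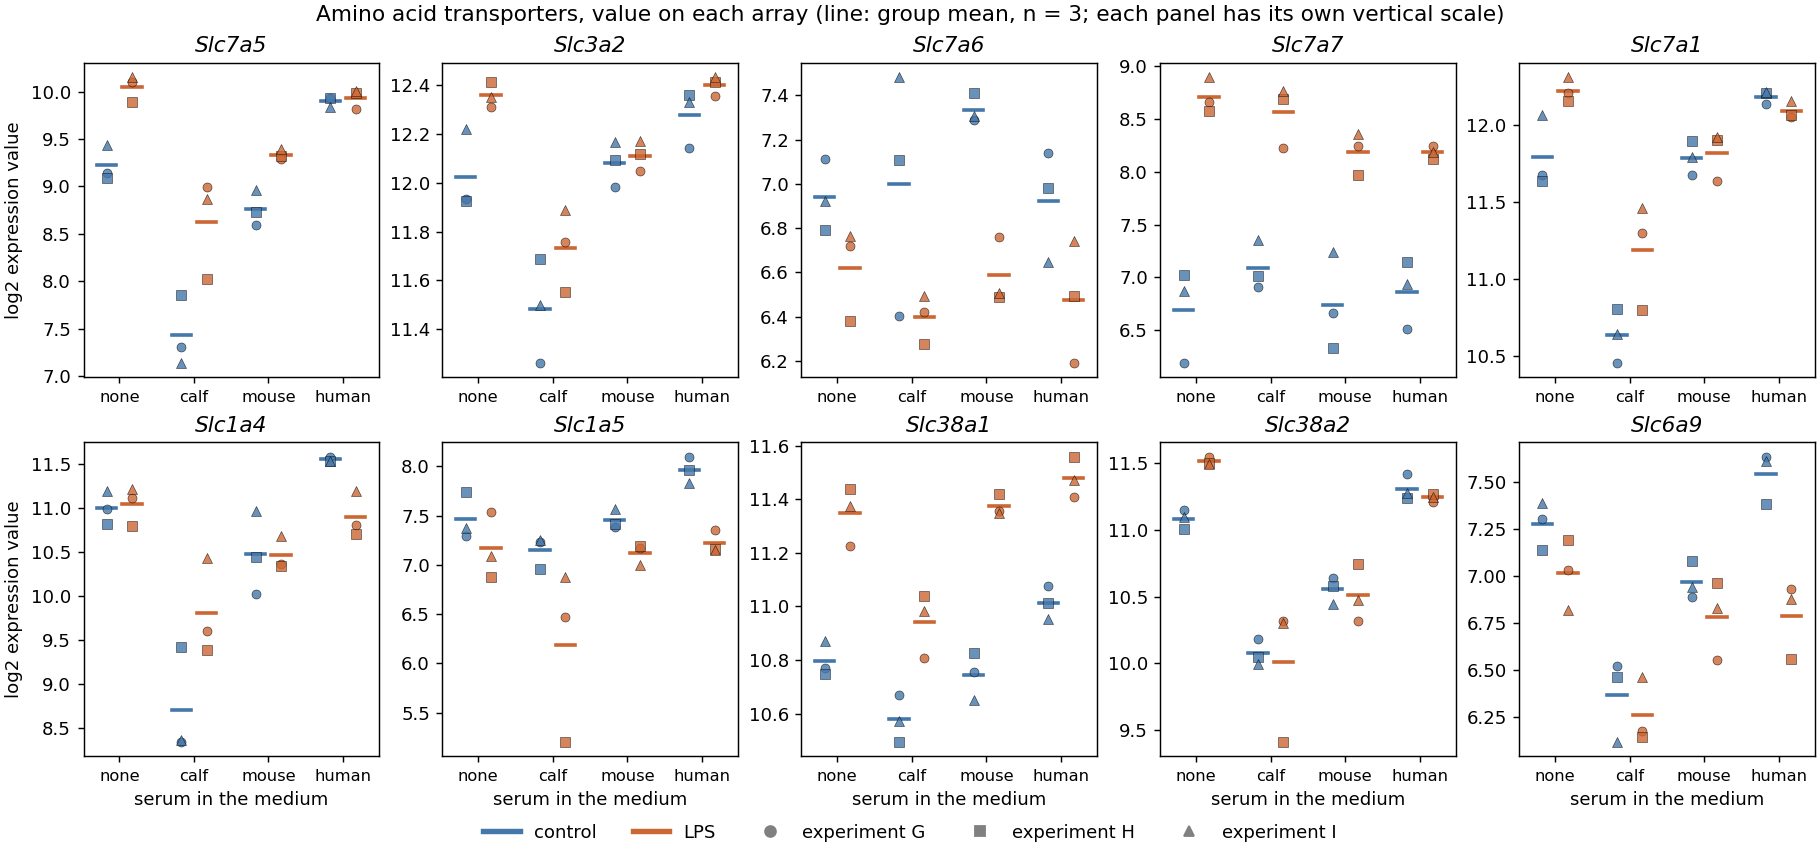
Log2 expression value of the 10 genes on each of the 24 arrays, by serum (horizontal axis) and treatment (blue control, orange LPS), with a line at the mean of 3 arrays and the symbol giving the experiment. Slc7a7 has its LPS arrays above its control arrays in all media. Slc7a5, Slc3a2, Slc7a1, Slc1a4, Slc38a2 and Slc6a9 have both calf serum means below those of all other groups.

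**Figure D2:**
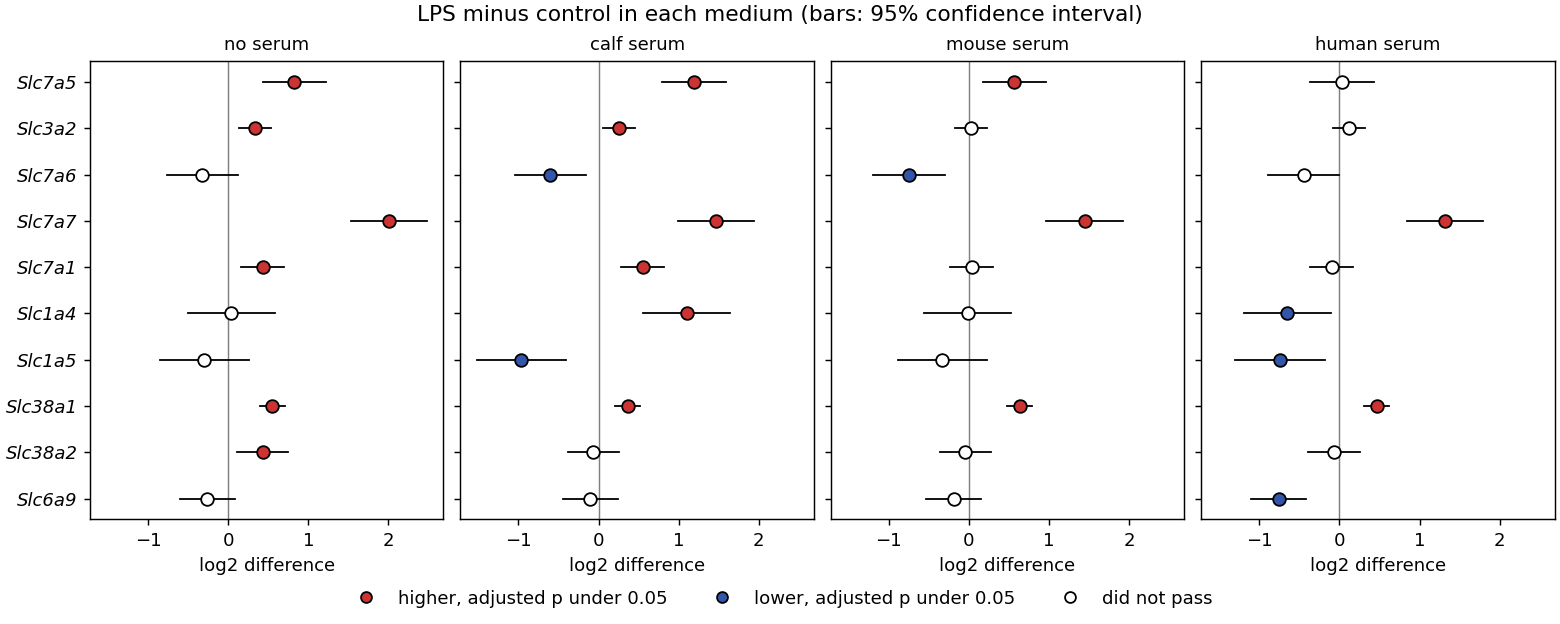
Log2 difference between LPS and control for each gene in each medium, with the 95% confidence interval from limma; filled points passed the threshold of 0.05 on the adjusted p. No serum has 6 filled points to the right and human serum has 2 to the right and 3 to the left.

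The sera differed from no serum in how many of the genes changed. In resting cells calf serum went with lower values for 6 of 10 genes and higher values for none, where 2.27% of all genes were called lower and 0.696% higher, and the median over the 10 was -0.73 against 0.00 for all genes. The 6 were Slc1a4, Slc7a5, Slc7a1, Slc38a2, Slc6a9 and Slc3a2. Mouse serum lowered Slc38a2 alone (5.34% of all genes lower, 4.47% higher), and human serum raised Slc7a5 alone (4.73% higher, 5.69% lower). Under LPS, calf serum lowered 8 of 10 genes against no serum (5.85% of all genes lower, 5.00% higher; median -0.87), mouse serum lowered 3 (6.58% lower, 6.82% higher), and human serum changed 0 by limma's adjusted p (2.64% of all genes lower, 2.60% higher). In that last comparison 1 gene had an unadjusted p under 0.05, Slc7a7 (-0.52 ± 0.23).

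The sera differed among themselves as well. In resting cells 8 of 10 genes were higher in human than in calf serum (7.10% of all genes higher, 7.59% lower; median 1.00), 5 were higher in mouse than in calf serum (5.07% and 4.57%), and 5 were lower in mouse than in human serum (2.69% lower, 2.56% higher). With LPS 7 were higher in human than in calf serum (3.67% higher, 2.60% lower; median 0.79), 5 were higher in mouse than in calf serum (3.19% and 2.23%), and Slc38a2 alone was lower in mouse than in human serum (1.10% lower, 1.29% higher). No member was called in the direction opposite to the others in any of these 6 comparisons. The comparisons share arrays, so they are not independent of each other.

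**Figure D3:**
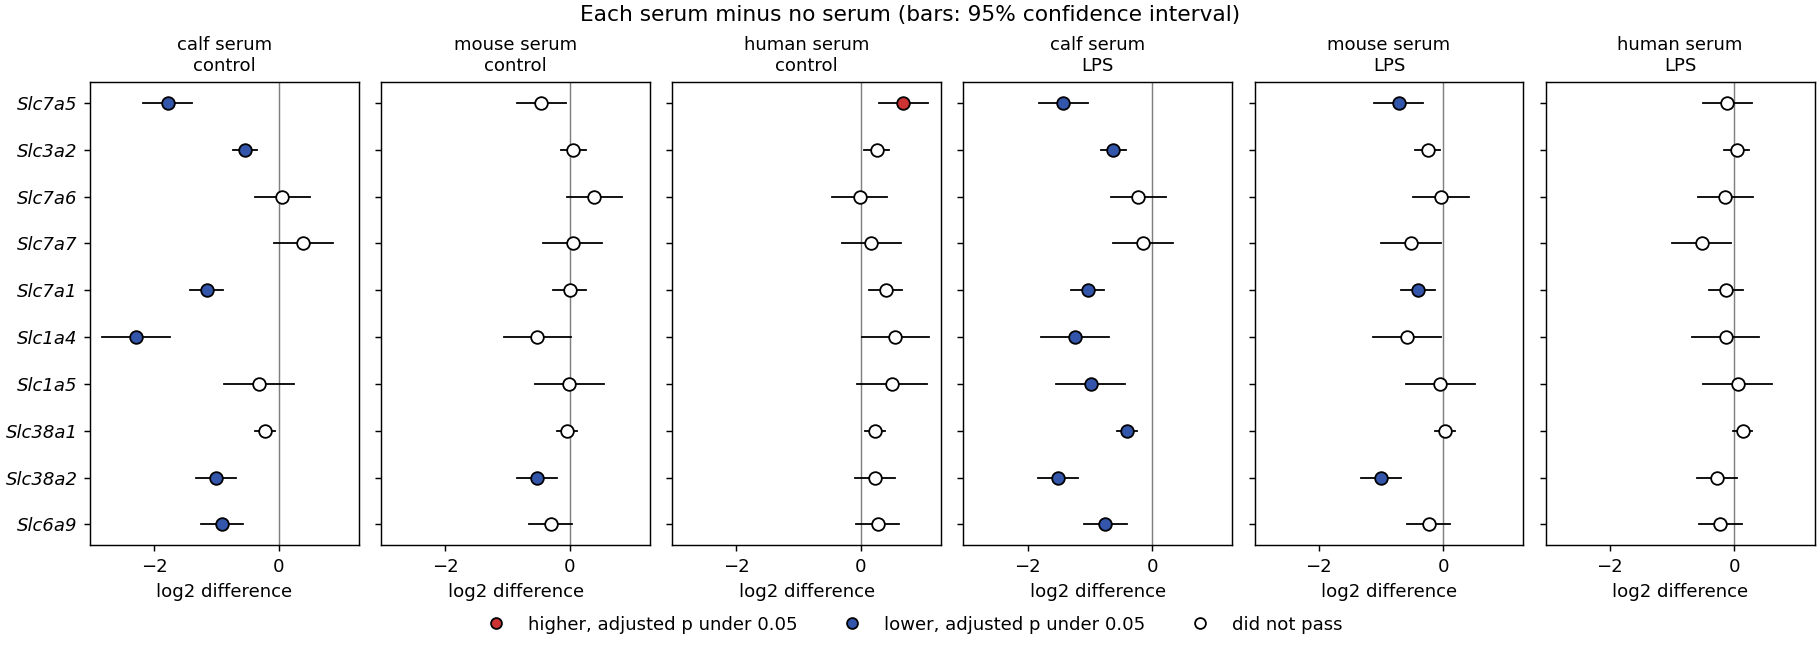
Log2 difference between each serum and no serum for the 10 genes, in controls (left 3 panels) and with LPS (right 3 panels), with 95% confidence intervals; filled points passed the threshold of 0.05. Calf serum has 6 and 8 filled points, all to the left.

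Slc7a5, the LAT1 light chain, was lowest in calf serum and highest in no serum with LPS and in human serum. Its probe set (1418326_at; gene at chr8:121881146-121907686 in GRCm38.p6) read 9.15, 9.08 and 9.43 in no serum controls of experiments G, H and I and 10.10, 9.90 and 10.15 with LPS. These groups did not overlap, and LPS raised the gene by 0.83 ± 0.19 (SE, n = 3 per group), or 1.77-fold (adjusted p = 0.000754). In calf serum the controls read 7.31, 7.86 and 7.14 and the LPS arrays 8.99, 8.02 and 8.86. There the difference was 1.19 ± 0.19 (adjusted p = 1.36e-05), made of 1.68 and 1.72 in experiments G and I and 0.16 in experiment H. It was 1.49 without the LPS array of experiment H and 1.40 without its control. Mouse serum gave 8.59, 8.73 and 8.97 without and 9.29, 9.32 and 9.39 with LPS, a difference of 0.57 ± 0.19 (adjusted p = 0.0161), which missed the threshold without the control array of experiment G (0.48, adjusted p = 0.0705). In human serum the arrays read 9.93, 9.94 and 9.83 without and 9.82, 9.98 and 10.005 with LPS. Those groups overlapped, and the 95% interval of the difference ran from -0.36 to 0.43.

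Across media the resting level of Slc7a5 fell by 1.79 ± 0.19 on the log2 scale in calf serum against no serum, which is 3.45-fold (adjusted p = 2.11e-06, lower in 3 of 3 experiments). In human serum it was 0.68 ± 0.19 above no serum (adjusted p = 0.0235), and this call was lost without any of 4 arrays, the no serum or human serum controls of experiments G and H (0.61 to 0.66, adjusted p 0.0634 to 0.105). Human serum exceeded calf serum by 2.46 ± 0.19, or 5.52-fold, with no overlap (2.68 without the calf serum control of experiment H), and mouse serum exceeded calf serum by 1.33 ± 0.19 and lay 1.14 ± 0.19 below human serum. In the order of the 8 means, no serum with LPS (10.05) and human serum with LPS (9.94) and without (9.90) overlapped, then followed mouse serum with LPS (9.33) with no serum (9.22), mouse serum (8.76) with calf serum and LPS (8.62), and calf serum (7.44). With LPS the gene was lower than without serum in calf serum (-1.42 ± 0.19; -1.12 without the calf serum array of experiment H) and in mouse serum (-0.72 ± 0.19, adjusted p = 0.0133). The mouse serum call was lost without the no serum array with LPS of experiment I (-0.66, adjusted p = 0.0538). Against calf serum with LPS, human serum was higher by 1.31 ± 0.19 (1.01 without the calf serum array of experiment H) and mouse serum by 0.71 ± 0.19 (adjusted p = 0.0286), the latter lost without that array or any of the 3 mouse serum arrays (0.41 to 0.73, adjusted p 0.0624 to 0.223).

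The genes most like Slc7a5 over the 8 group means, among all genes tested, were Asns (Pearson's r 0.989), which makes asparagine, Cars (0.981), a cysteinyl-tRNA synthetase, Chac1 (0.978), which degrades glutathione, Eea1 (0.975), an early endosome protein, and Ero1a (0.967), an oxidase of the endoplasmic reticulum. Slc7a1 and Slc3a2 came next at ranks 6 and 7 (0.963 and 0.960), Slc1a4 had rank 22 (0.930), and Slc38a2 rank 47 (0.871). The remaining members were further off, from 0.786 for Slc38a1 to -0.35 for Slc7a6. These are descriptions over 8 means of shared arrays and carry no p.

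Promoters of the members and of the listed genes were searched for TGATGNAA, the core of the C/EBP-ATF response element that Atf4 and its partners can bind, and for the E-box CACGTG, on both strands. RefSeq promoter windows (GRCm38.p6, 250 bases before to 50 after a start) were at hand for 7 of the 10 genes. TGATGNAA is in 4.51% of 27025 genes with such a window and in 2 of these 7, Slc1a4 and Slc7a7. A gene can have several windows, and TGATGNAA is in 3 of the 15 windows of these 7 genes and in 3.97% of all 32851. CACGTG is in 8.09% of genes and in 0 of the 7. Of the 18 genes with a window in the list of amino acid response factors and targets, 6 held TGATGNAA (Atf3, Chac1, Trib3, Asns, Nupr1 and Vldlr) and 1 CACGTG. Among other plasma membrane carriers 1 of 18 genes held TGATGNAA and 2 CACGTG. Among carriers inside the cell these counts were 0 and 4 of 15, and among genes of amino acid sensing by mTORC1 1 and 6 of 23. The stretch of Asns, the gene with the profile nearest to Slc7a5, is shown for comparison from 250 bases before the start up to the start, at chr6:7693210-7693459 on the minus strand, with the match, whose first base lies 23 bases before the start, in capitals.
Asns: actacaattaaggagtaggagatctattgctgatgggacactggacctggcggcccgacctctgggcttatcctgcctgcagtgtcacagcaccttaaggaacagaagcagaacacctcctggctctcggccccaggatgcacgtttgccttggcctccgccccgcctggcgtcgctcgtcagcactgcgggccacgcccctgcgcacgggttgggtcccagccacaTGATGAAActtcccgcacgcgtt
A match describes the letters and shows no binding, and a window without one says nothing about the factor.

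Slc3a2, the shared heavy chain, was higher with LPS in no serum and calf serum and was lowest in calf serum, with smaller differences than Slc7a5. Its probe set (1425364_a_at; chr19:8706882-8723369) read 11.93, 11.92 and 12.22 in no serum controls and 12.31, 12.41 and 12.35 with LPS, without overlap, and the difference was 0.33 ± 0.10 (adjusted p = 0.00513), or 1.26-fold, a call lost without the whole of experiment H (0.25, adjusted p = 0.0637). In calf serum the controls read 11.26, 11.69 and 11.50 and the LPS arrays 11.76, 11.55 and 11.89. These overlapped, with a difference of 0.25 ± 0.10 (adjusted p = 0.0305) that was -0.14 in experiment H, and the call was lost without any of the 4 arrays of experiments G and I (0.14 to 0.26, adjusted p 0.0542 to 0.221). With quantile normalization it was 0.13 (adjusted p = 0.246). The gene was 12.08 and 12.11 on average in mouse serum without and with LPS and 12.28 and 12.40 in human serum, where the LPS differences of 0.03 and 0.12 did not pass.

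Calf serum had the lowest Slc3a2 values of the 4 media. In resting cells it lay 0.54 ± 0.10 below no serum on the log2 scale (adjusted p = 0.00113, but 0.12 without the whole of experiment I), 0.60 ± 0.10 below mouse serum and 0.80 ± 0.10 below human serum, with no overlap. Under LPS it lay 0.63 ± 0.10 below no serum (0.53 without the calf serum array of experiment H), 0.67 ± 0.10 below human serum and 0.38 ± 0.10 below mouse serum. The last call was lost without the calf serum array of experiment H (0.29, adjusted p = 0.143) or without the mouse serum arrays of experiments H or I (adjusted p 0.0577 and 0.0819). With the experiment as a block, human serum exceeded no serum in resting cells (0.25, adjusted p = 0.0437, against 0.109 without the block), and mouse serum lay below no serum under LPS (-0.25, adjusted p = 0.0421, against 0.1).

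Of the other partners of Slc3a2, Slc7a7 had the largest LPS response of the 10 genes in each of the 4 media, and Slc7a6 was called lower with LPS in calf and mouse serum. Slc7a7 (1417392_a_at; chr14:54369442-54420068) read 6.19, 7.03 and 6.87 in no serum controls and 8.66, 8.57 and 8.89 with LPS. It went from 6.91, 7.01 and 7.35 to 8.23, 8.69 and 8.76 in calf serum, from 6.66, 6.33 and 7.24 to 8.24, 7.97 and 8.35 in mouse serum, and from 6.51, 7.14 and 6.94 to 8.24, 8.12 and 8.19 in human serum. In every medium the lowest LPS array was above the highest control. The difference was 2.01 ± 0.23 (4.02-fold, adjusted p = 9.89e-08) without serum. With calf serum it was 1.47 ± 0.23, with mouse serum 1.44 ± 0.23 and with human serum 1.32 ± 0.23 (2.49-fold, adjusted p = 4.33e-05). They passed in all 36 alternatives. No difference between media passed for this probe set of Slc7a7, with or without LPS. Its other probe set was lower in mouse serum than without serum under LPS (-0.97, adjusted p = 0.00525), as was the mean of both (-0.74, adjusted p = 0.00436), and with only the arrays compared human serum was lower (-0.52, adjusted p = 0.0423). The 3 differences between a serum and no serum in the response were -0.54 to -0.69 and did not pass (adjusted p 0.276 to 0.546), although in human serum the sign was the same in 3 of 3 experiments. A promoter of Slc7a7, one of several in RefSeq, holds 2 matches to TGATGNAA, whose first bases lie 141 bases and 1 base before the start. It is shown to the end of the second match, at chr14:54417938-54418194 on the minus strand, with both matches in capitals.
Slc7a7: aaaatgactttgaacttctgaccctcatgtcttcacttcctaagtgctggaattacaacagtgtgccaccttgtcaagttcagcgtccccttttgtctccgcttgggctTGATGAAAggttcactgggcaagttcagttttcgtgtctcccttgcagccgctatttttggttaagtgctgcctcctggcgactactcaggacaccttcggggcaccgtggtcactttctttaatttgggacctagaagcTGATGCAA

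Slc7a6 (1460541_at; chr8:106168219-106198714) was near 7 in controls and lower with LPS. It read 7.29, 7.41 and 7.31 in mouse serum and 6.76, 6.49 and 6.51 with LPS, without overlap, a difference of -0.75 ± 0.21 (adjusted p = 0.00549) that was lost without the whole of experiment H (-0.66, adjusted p = 0.0976). In calf serum the controls spread from 6.40 to 7.48 and the LPS arrays from 6.28 to 6.49. There the difference was -0.60 ± 0.21 (adjusted p = 0.0201), and it was lost without either calf serum array of experiment H or the control of experiment I (adjusted p 0.0653 to 0.168) and under quantile normalization (-0.38, adjusted p = 0.13). The differences of -0.32 without serum and -0.45 in human serum did not pass, although with the mean of its probe sets they were -0.73 (adjusted p = 0.00434) and -0.75 (adjusted p = 0.00397). No comparison of media was called for Slc7a6, and its profile over the groups ran most against that of Slc7a7 (r -0.88 over 8 means).

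Slc7a1, the arginine and lysine carrier CAT1, followed Slc3a2 closely over the groups (r 0.981 over 8 means, the highest of any pair of members). Its probe set (1454991_at; chr5:148327410-148399904) read 11.67, 11.63 and 12.06 without serum and 12.21, 12.15 and 12.31 with LPS, a rise of 0.43 ± 0.13 (adjusted p = 0.00646). In calf serum the controls read 10.45, 10.80 and 10.64 and the LPS arrays 11.30, 10.80 and 11.46. The difference of 0.55 ± 0.13 (adjusted p = 0.000916) came to 0.84 and 0.82 in experiments G and I, whereas both arrays of experiment H read 10.80, and was 0.75 without the LPS array of experiment H. Without the whole of experiment G both calls were lost, at 0.38 without serum (adjusted p = 0.07) and 0.41 in calf serum (adjusted p = 0.0555). In mouse and human serum the LPS differences were 0.04 and -0.09 and did not pass, with 95% intervals from -0.23 to 0.30 and from -0.36 to 0.17.

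Resting Slc7a1 in calf serum lay 1.16 ± 0.13 below no serum on the log2 scale, or 2.23-fold (adjusted p = 3.85e-06), 1.15 ± 0.13 below mouse serum and 1.55 ± 0.13 below human serum (2.93-fold), with every calf serum array below every array of the other media. With LPS the distances were 1.04 ± 0.13 to no serum, 0.90 ± 0.13 to human and 0.63 ± 0.13 to mouse serum. They came to 0.84, 0.71 and 0.44 without the calf serum array of experiment H and all passed, though the distance to mouse serum did not without the whole of experiment H (0.40, adjusted p = 0.121). Mouse serum lay 0.40 ± 0.13 below no serum with LPS (adjusted p = 0.0415), a call lost without any of the 6 arrays compared (-0.45 to -0.31, adjusted p 0.0508 to 0.188). With the experiment as a block 2 further differences in resting cells passed, human serum over no serum (0.39, adjusted p = 0.0274, against 0.0545) and mouse serum under human serum (-0.40, adjusted p = 0.041, against 0.0801).

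Slc1a4, the exchanger ASCT1, had the widest range of the 10 genes, from 8.34 to 11.58 over the 24 arrays, and most of it lay between calf serum and the other media. Its probe set (1456003_a_at; chr11:20302180-20332713) read 10.98, 10.81 and 11.19 in resting cells without serum and 8.34, 9.41 and 8.36 in calf serum. Mouse serum gave 10.01, 10.44 and 10.96, and human serum 11.58, 11.53 and 11.53. Calf serum was thus below all other media on every array. Its distance to no serum was 2.29 ± 0.26 on the log2 scale (4.90-fold lower, adjusted p = 4.83e-06) and 2.65 without the control array of experiment H. Human serum exceeded calf serum by 2.84 ± 0.26 (7.18-fold; 3.20 without that array) and mouse serum did by 1.77 ± 0.26 (3.41-fold; 2.13 without it), and mouse lay 1.08 ± 0.26 below human serum (adjusted p = 0.0134). That last call was lost without the mouse serum control of experiment G (-0.85, adjusted p = 0.104). Human serum exceeded no serum by 0.55, which did not pass.

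LPS moved Slc1a4 up in calf serum and down in human serum. With LPS the arrays read 11.11, 10.79 and 11.21 without serum and 9.60, 9.38 and 10.42 with calf serum. They read 10.36, 10.33 and 10.67 with mouse serum and 10.80, 10.70 and 11.19 with human serum. The difference was 0.04 ± 0.26 without serum, 1.10 ± 0.26 in calf serum (2.14-fold, adjusted p = 0.00106), -0.01 ± 0.26 in mouse serum and -0.65 ± 0.26 in human serum (adjusted p = 0.0398). In calf serum it was 1.26, -0.03 and 2.07 in experiments G, H and I, and 1.31 and 1.45 without the LPS array or the control of experiment H. Without the whole of experiment I it was 0.61 and the call was lost (adjusted p = 0.0565). In human serum LPS and control arrays did not overlap. That call was lost without the LPS arrays of experiments G or H or any of the 3 controls (-0.66 to -0.55, adjusted p 0.0719 to 0.126), with arrays centred on their medians (adjusted p = 0.052), with no filter or without trend and robust fitting (0.0635 and 0.0586), and with the mean of all its probe sets (-0.42, adjusted p = 0.124). Under LPS calf serum remained 1.24 ± 0.26 below no serum (1.03 without the array of experiment H, adjusted p = 0.0268; 1.10 without the whole of experiment G, adjusted p = 0.0681) and 1.10 ± 0.26 below human serum, the latter lost without that array (0.89, adjusted p = 0.0833) or the human serum array of experiment I (0.95, adjusted p = 0.067).

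The promoter window of Slc1a4 holds a match to TGATGNAA on the strand opposite to the gene, read here as its reverse complement. The first base of the match lies 4 bases before the start, and the match runs across the start. The window is shown to the end of that match, at chr11:20332710-20332963 on the minus strand, because Slc1a4 had the largest difference between calf serum and no serum of the 10 genes in resting cells.
Slc1a4: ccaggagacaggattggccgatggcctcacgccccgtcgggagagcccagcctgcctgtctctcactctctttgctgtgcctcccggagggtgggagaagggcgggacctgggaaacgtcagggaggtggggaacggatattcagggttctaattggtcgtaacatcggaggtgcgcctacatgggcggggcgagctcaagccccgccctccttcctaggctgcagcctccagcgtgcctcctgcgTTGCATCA

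Slc1a5, the glutamine exchanger ASCT2, was called lower with LPS in calf and human serum and higher in none of the 4 media. Its probe set (1416629_at; chr7:16781334-16798274) read 7.29, 7.73 and 7.37 without serum and 7.23, 6.96 and 7.25 with calf serum. It read 7.39, 7.42 and 7.57 with mouse serum and 8.10, 7.96 and 7.83 with human serum. With LPS human serum gave 7.36, 7.16 and 7.15, a fall by 0.74 ± 0.27 on the log2 scale (adjusted p = 0.0241) in 3 of 3 experiments. That call was lost without the human serum controls of experiments G or H or the LPS arrays of H or I (adjusted p 0.0505 to 0.0722) and under quantile normalization (-0.59, adjusted p = 0.0736). In calf serum LPS gave 6.47, 5.20 and 6.88, and the difference of -0.96 ± 0.27 (adjusted p = 0.00393) shrank to -0.47 (adjusted p = 0.0435) without the array at 5.20, that of experiment H. The differences of -0.30 without serum and -0.33 in mouse serum did not pass, but with the mean of its probe sets they were -0.82 (adjusted p = 0.00191) and -1.26 (adjusted p = 2.7e-05). Slc1a5 was called lower in calf serum than in no serum, mouse and human serum under LPS, and all 3 calls were lost without the calf serum array of experiment H (adjusted p 0.138, 0.283 and 0.132). Each was lost without other single arrays too: the no serum array of experiment G (adjusted p = 0.103), any of the 3 mouse serum arrays (0.072 to 0.115), and the human serum arrays of G or H (0.0531 and 0.0808). In resting cells human serum exceeded calf serum by 0.81 ± 0.27 (adjusted p = 0.0428), a call lost without any of 8 arrays, which include all 6 compared (adjusted p 0.0507 to 0.148).

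The glutamine carrier Slc38a1 rose with LPS in all 4 media. It (1454764_s_at, a probe set whose ending marks possible cross-hybridisation; chr15:96571418-96643438) read 10.77, 10.75 and 10.87 without serum and 11.23, 11.44 and 11.38 with LPS. In calf serum it read 10.67, 10.49 and 10.57 against 10.81, 11.04 and 10.98, in mouse serum 10.76, 10.82 and 10.65 against 11.36, 11.42 and 11.35, and in human serum 11.08, 11.01 and 10.95 against 11.41, 11.56 and 11.47. LPS and control arrays did not overlap in any medium. The rise was 0.63 ± 0.08 with mouse serum, 0.55 ± 0.08 (1.47-fold, adjusted p = 1.71e-06) without serum, 0.47 ± 0.08 with human serum and 0.36 ± 0.08 with calf serum, and all passed in all 36 alternatives. Its other probe set gave 9 of the 9 calls in the same direction. For the members with a further probe set, these repeated 8 and 8 of 10 calls for Slc7a1, 5 and 7 of 9 for Slc1a4, 7 and 6 of 9 for Slc38a2, 4 of 4 for Slc7a7, 2 of 2 for Slc7a6, 2 of 6 for Slc1a5 and 1 of 6 for Slc6a9, and gave no call in the opposite direction. Calf serum lay below the other media under LPS, by 0.40 ± 0.08 to no serum, 0.43 ± 0.08 to mouse and 0.54 ± 0.08 to human serum. In resting cells human serum exceeded calf serum by 0.44 ± 0.08 and mouse serum by 0.27 ± 0.08. The latter (adjusted p = 0.0396) was lost without any control array of human serum or those of experiments G or I of mouse serum (adjusted p 0.0517 to 0.201).

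Slc38a2, the carrier that cells are known to induce when amino acids run short, rose with LPS without serum and was not called in the 3 sera. Its probe set (1426722_at; chr15:96687392-96699728) read 11.15, 11.01 and 11.10 without serum and 11.55, 11.50 and 11.50 with LPS. The difference of 0.43 ± 0.15 (adjusted p = 0.0197) was lost without the LPS array of experiment G or the control of experiment H (adjusted p 0.0511 and 0.0667) and under quantile normalization (0.33, adjusted p = 0.0655). Calf serum gave 10.18, 10.05 and 9.996 without and 10.32, 9.41 and 10.31 with LPS, a difference of -0.06 that became 0.24 (adjusted p = 0.0474) without the array of experiment H. In mouse and human serum the groups overlapped, at -0.04 and -0.07. The 3 differences between a serum and no serum in the LPS response were -0.48 to -0.50 and did not pass (adjusted p 0.235 to 0.329), so a restriction to no serum is not shown.

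Slc38a2 was lower in calf and mouse serum than in no serum and human serum. Resting cells in calf serum lay 1.01 ± 0.15 below no serum on the log2 scale (2.01-fold, adjusted p = 0.000199) and 1.24 ± 0.15 below human serum, and those in mouse serum lay 0.53 ± 0.15 below no serum (adjusted p = 0.0278) and 0.76 ± 0.15 below human serum. That last call was lost without the whole of experiment G or I (adjusted p 0.0602 and 0.129). With LPS calf serum lay 1.51 ± 0.15 below no serum (2.84-fold; 1.20 without the array of experiment H) and 1.23 ± 0.15 below human serum (0.93 without that array), and mouse serum lay 1.01 ± 0.15 below no serum (adjusted p = 6.72e-05) and 0.73 ± 0.15 below human serum (adjusted p = 0.0098). None of these pairs of groups overlapped. The resting difference between mouse and no serum was lost without any of the 3 no serum controls or the mouse serum controls of experiments H or I (adjusted p 0.0533 to 0.116), and that between mouse and human serum with LPS without the mouse serum array of experiment G (-0.63, adjusted p = 0.0607). Mouse against calf serum in resting cells, 0.48 ± 0.15, passed with the experiment as a block (adjusted p = 0.046) and not without it (0.052).

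Slc6a9, the glycine carrier, fell with LPS in human serum. Its probe set (1417636_at; chr4:117835258-117869305) read 7.64, 7.39 and 7.61 in human serum and 6.93, 6.56 and 6.88 with LPS, a difference of -0.76 ± 0.17 (adjusted p = 0.000516, 3 of 3 experiments) without overlap. This difference passed in all 36 alternatives, among them the mean of the gene's probe sets. The gene's other probe set gave -0.16 (adjusted p = 0.542) for the same comparison and repeated 1 of the 6 calls of Slc6a9, calf serum under no serum at rest. In the other media the differences were -0.26, -0.10 and -0.19 and did not pass. Resting cells read 7.30, 7.14 and 7.39 without serum, 6.52, 6.46 and 6.11 in calf and 6.89, 7.08 and 6.94 in mouse serum. Calf serum lay 0.91 ± 0.17 below no serum (adjusted p = 0.00137, but 0.187 without the whole of experiment I), 1.18 ± 0.17 below human serum and 0.61 ± 0.17 below mouse serum, the last lost without the mouse serum control of experiment H or the calf serum control of experiment I (adjusted p 0.0869 and 0.122). Mouse serum lay 0.58 ± 0.17 below human serum (adjusted p = 0.0437), a call lost without any of 9 arrays, which include 5 of the 6 compared (adjusted p 0.0507 to 0.147). Under LPS calf serum lay 0.75 ± 0.17 below no serum (adjusted p = 0.00381), but not with the mean of its probe sets (-0.46, adjusted p = 0.0617) or with only the arrays compared (adjusted p = 0.0512), nor without the whole of experiment G or H (adjusted p 0.0712 and 0.132).

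Whether the LPS response differed between media was tested directly. Against no serum, 0 of the 10 genes were called in calf serum (0.899% of all genes higher and 0.899% lower), in mouse serum (3.40% and 3.05%) or in human serum (2.50% and 2.46%) by limma's adjusted p. At an unadjusted p under 0.05 these counts were 2, 3 and 5. Between sera, a comparison added after the values had been seen, 3 members had a lower LPS difference in human than in calf serum (2.33% of all genes higher, 2.27% lower). These were Slc1a4 (-1.75 ± 0.37, adjusted p = 0.00558), Slc7a5 (-1.15 ± 0.27, adjusted p = 0.013) and Slc7a1 (-0.65 ± 0.18, adjusted p = 0.0438). For Slc1a4 the sign turned, from 1.10 in calf to -0.65 in human serum. All 3 had the same sign in 3 of 3 experiments, with Slc1a4 at -2.04, -0.81 and -2.40, Slc7a5 at -1.80, -0.11 and -1.55, and Slc7a1 at -0.93, -0.13 and -0.88 in G, H and I. Without the calf serum array with LPS of experiment H they were -1.96, -1.46 and -0.84, and all passed. Without the whole of experiment G or of experiment I none passed, with adjusted p of 0.0663 to 0.361, and for Slc7a1 leaving out any of 12 single arrays, 10 of them among the 12 compared, ended the call (-0.68 to -0.51, adjusted p 0.0505 to 0.123). No other probe set of these genes was called here: those of Slc1a4 gave -0.70 and -1.36 (adjusted p 0.482 and 0.0613) and those of Slc7a1 -0.40 and -0.67 (adjusted p 0.616 and 0.0764), and Slc7a5 has 1 probe set.

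Between mouse and calf serum 0 responses were called (1.82% of all genes higher, 1.95% lower), although 4 had an unadjusted p under 0.05. Without the calf serum array with LPS of experiment H, Slc7a5 (-0.92, adjusted p = 0.015) and Slc7a1 (-0.71, adjusted p = 0.00763) passed, and without the control of that experiment Slc1a4 did (-1.47, adjusted p = 0.0113). Without that control Slc1a4 also responded more in calf serum than without serum (1.41, adjusted p = 0.0255, against 1.06 and 0.175 with all arrays). Between mouse and human serum 0 were called (0.314% higher and 0.314% lower), with 1 at an unadjusted p under 0.05, Slc6a9 (0.57 ± 0.23).

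**Figure D4:**
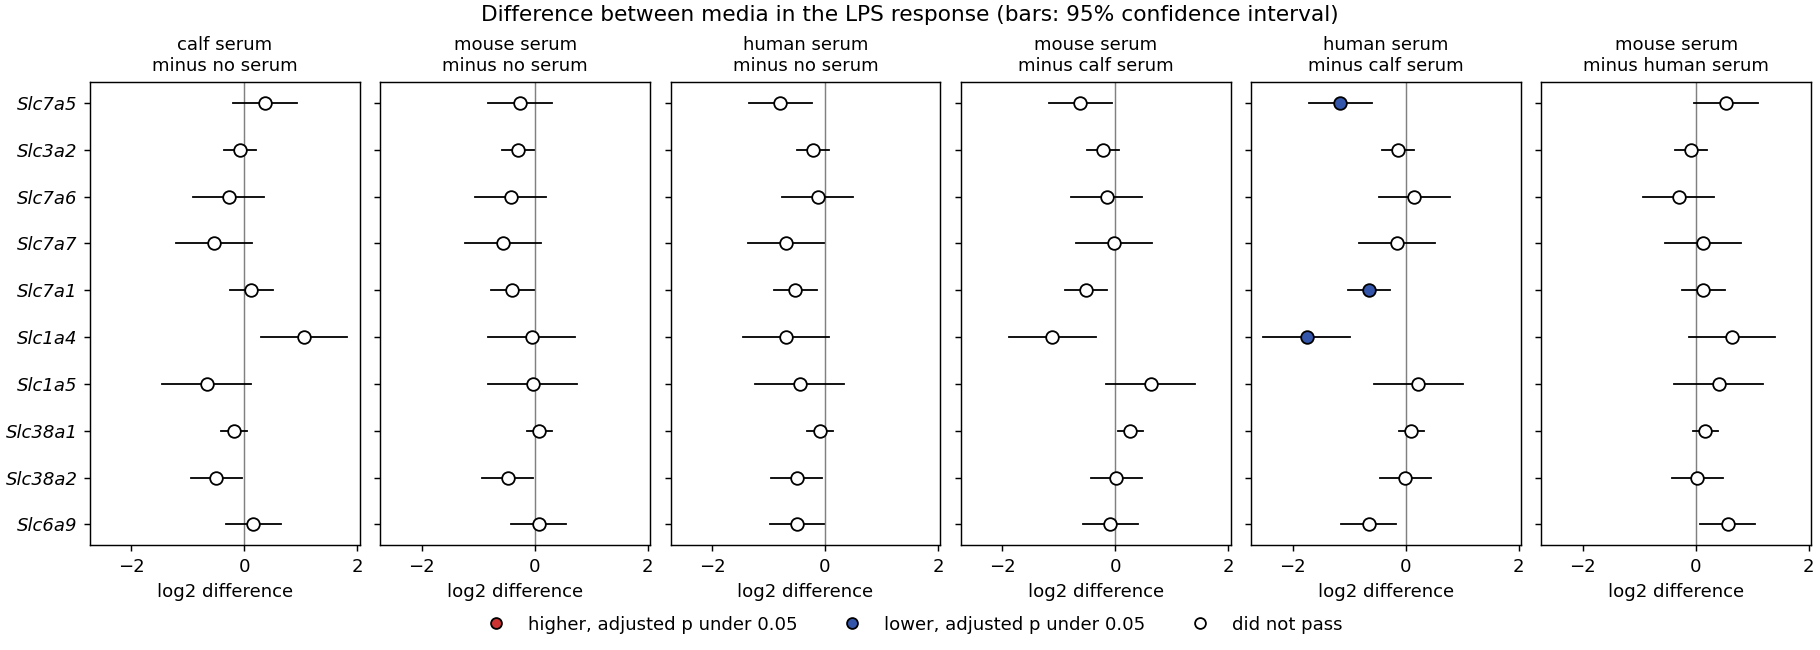
Difference between media in the log2 response to LPS for each gene, with 95% confidence intervals; filled points passed the threshold of 0.05. Only the panel of human minus calf serum has filled points, for Slc7a5, Slc7a1 and Slc1a4, all to the left.

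Other amino acid carriers of the plasma membrane were counted as a list. Of 27 listed, 11 passed the filter, and without serum 5 were higher and 3 lower with LPS, where 19.8% and 39.1% of all genes were. The counts were 4 and 4 in calf serum (20.8% and 37.8%), 2 and 3 in mouse serum (17.8% and 33.8%) and 3 and 2 in human serum (18.4% and 35.5%). Slc7a2 (CAT2), the inducible arginine carrier of activated macrophages, rose by 5.22 ± 0.21 without serum and 4.37 ± 0.21 with calf serum, and by 3.42 ± 0.21 and 3.41 ± 0.21 with human and mouse serum. Its response was smaller in mouse and human serum than without serum (-1.81 ± 0.29 and -1.79 ± 0.29). The means of Slc7a2 with LPS lay between 10.93 (calf serum) and 11.09 (mouse serum), with no serum at 11.03 and human serum at 11.08. Its resting means were 7.68 (mouse) and 7.66 (human), against 6.56 (calf) and 5.82 without serum, where arrays ran from 5.38 to 6.67. The smaller responses thus went with higher resting values and not with lower values under LPS. Slc7a11, the cystine carrier xCT and a further light chain of Slc3a2, rose with LPS by 2.09 ± 0.18 without serum and 1.78 ± 0.18 in calf serum, while the differences of 0.16 ± 0.18 in mouse and 0.20 ± 0.18 in human serum did not pass. In resting cells it was higher in mouse and human serum than without serum by 1.94 ± 0.18 and 1.34 ± 0.18 and lower in calf serum (-0.84 ± 0.18). Slc43a2 (LAT4), a carrier of large neutral amino acids, fell with LPS in the 4 media, from -1.56 without serum to -1.498 with mouse serum.

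Carriers inside the cell and sensors of amino acids were counted in the same way. Of 17 tested genes for lysosomal, mitochondrial and other intracellular carriers, LPS raised 3 and lowered 9 without serum. The counts were 4 and 11 with calf serum, 3 and 10 with mouse serum and 3 and 7 with human serum. Of all genes 17.8% to 20.8% were called higher and 33.8% to 39.1% lower in these 4 comparisons. Slc25a22, a mitochondrial glutamate carrier, rose by 2.39 to 2.63, and Ctns, the lysosomal cystine carrier, fell by 1.83 to 1.99 in the 3 sera. Ctns fell without serum as well. Without the calf serum control of experiment H its LPS difference in calf serum was -1.80. In that fit its response in calf serum differed from that without serum by only -0.10. This difference between responses was -0.13 without the LPS array of that experiment, and neither value passed (limma's adjusted p 0.899 and 0.888). In resting cells 0 of the 17 were called in calf serum against no serum by limma's adjusted p, with 2 at an unadjusted p under 0.05 (2.27% of all genes lower, 0.696% higher). In mouse serum 1 was higher and 2 lower (4.47% and 5.34% of all genes), and in human serum 1 and 3 (4.73% and 5.69%). Of 24 genes of amino acid sensing by mTORC1, LPS lowered 15 in each of the 4 media, beside the 33.8% to 39.1% of all genes, and raised 1, 0, 1 and 1. Among them were Sesn1, a sestrin (-5.19 ± 0.31 without serum and -2.61 ± 0.31 in human serum), and Flcn, part of the folliculin complex (-2.09 to -2.53). Without the calf serum array with LPS of experiment H, the LPS difference of Sesn1 in calf serum was -5.35. In that fit resting Sesn1 in mouse and human serum differed from calf serum by -2.47 and -2.68. With LPS these differences were 0.15 and 0.07 and did not pass.

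Of the 20 genes in the list of amino acid response factors and targets, 13 were lower and 0 higher in calf serum than in no serum at rest (median -0.82), where 2.27% of all genes were lower and 0.696% higher. With LPS 12 were lower and 0 higher (median -1.06; 5.85% and 5.00% of all genes), and 11 and 0 without the calf serum array of experiment H (median -0.78). Human serum exceeded calf serum at rest for 16 genes and lay below it for 1 (median 1.15; 7.10% of all genes higher, 7.59% lower). Chac1 was 3.68 ± 0.37 higher in human than in calf serum at rest, and Nupr1, a stress-induced chromatin protein, 2.24 ± 0.09 higher. Under LPS calf serum against no serum gave -2.37 ± 0.24 for Trib3, a pseudokinase induced by Atf4, -2.24 ± 0.25 for Ddit4, an inhibitor of mTORC1, and -1.98 ± 0.25 for Sesn2, a leucine sensor. Without the calf serum array of experiment H these were -1.88, -1.92 and -1.49. Asns, the nearest in profile to Slc7a5, is a member of this list, and the list was chosen with earlier results of these data known.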

How the data were processed

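Total RNA was hybridised to 24 Affymetrix arrays. The deposited values are log2 expression values that the authors made with GCRMA, and Partek is also named, per the submitters' processing notes; versions are not given in the sources used here, and the log2 scale was read from the values (1.48 to 14.84). All value columns matched a sample (0 unmatched). Of 45101 probe sets, 34945 name 1 gene, 932 several and 9160 none, and 64 are controls. Probe sets had to lie above the overall median (5.08 on the log2 scale) on 3 or more of the 24 arrays, and each gene took the passing probe set with the highest mean.

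limma 3.58.1 in R 4.3.3 (lmFit, contrasts.fit, eBayes with trend and robust) fitted 1 mean per group over all 24 arrays. Tests are two-sided, with Benjamini-Hochberg adjustment over 11785 genes within each of 22 comparisons. Of these, 3, on the LPS response between sera, were added after the values were seen. Fits were tested on simulated data. Values were read and drawn with Python 3.11.15, pandas 2.3.3 and matplotlib 3.10.9. The number of arrays, 3 a group, limits the precision.

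The labels give arrays of a letter as 1 experiment. Deviations from group means correlated at a median of 0.062 over 84 pairs of the same letter (-0.046 to 0.18) and -0.035 over 168 pairs of different letters. Alternatives were other normalizations, filters, probe set rules and variance settings, fits of only the arrays compared, the experiment or array batch as a block, and leaving out each array or experiment.

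The members and lists were chosen with earlier results of these data known. All 10 members are named. Of every other list at most 3 genes per comparison are named, those with the largest difference among genes called with the same sign in all experiments. Of genes like Slc7a5, the 5 with the highest correlation are named.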

Additional observations from a re-analysis of the deposited data

Results flagged for a closer look

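The response to LPS differed between human and calf serum for 3 members by a test of the difference itself. It was -1.75 ± 0.37 for Slc1a4, -1.15 ± 0.27 for Slc7a5 and -0.65 ± 0.18 for Slc7a1 (human minus calf serum, log2, SE), with limma's adjusted p of 0.00558, 0.013 and 0.0438. Each had the same sign in 3 of 3 experiments and was smallest in experiment H. The other probe sets of Slc1a4 (-0.70 and -1.36) and Slc7a1 (-0.40 and -0.67) had the same sign and were not called (adjusted p 0.0613 to 0.616), and no call was kept without the whole of experiment G or I.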

How the results depend on the processing

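Over 36 alternatives, 1 member reversed: Slc38a2 with LPS in calf serum, from -0.06 to 0.24 without the calf serum array with LPS of experiment H (-0.25 to 0.24 over all arrays or experiments left out). Counts of members called that moved by over 1.5 times were as follows. With only the arrays compared, human against no serum in controls went from 1 to 3, mouse against no serum with LPS from 3 to 5, human against no serum with LPS from 0 to 2, mouse against human serum with LPS from 1 to 3 and mouse against calf serum with LPS from 5 to 1. The response went from 0 to 4 for human against no serum and from 3 to 1 for human against calf serum. With the mean of probe sets, controls gave 0 in place of 1 for mouse and 3 in place of 1 for human against no serum, and the response gave 1, 2 and 1 in place of 0 for calf against no serum, human against no serum and mouse against calf serum. Without trend and robust fitting mouse against no serum in controls gave 0, the stricter filter gave 2 for human against no serum in controls, and no filter gave 3 in place of 5 for mouse against human serum in controls. The cause of these changes was not tested.

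With the replicate block, human against no serum in controls gave 3 calls in place of 1, as did the array batch. Over all comparisons the array batch as a block gained 4 member calls and lost 1. The replicate block changed no call of a member other than the 5 gains given with Slc3a2, Slc7a1 and Slc38a2.

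Leaving out an array or experiment gave, for LPS, 4 to 6 calls without serum, 5 to 8 in calf, 3 to 4 in mouse and 3 to 6 in human serum. Against no serum it gave 4 to 6, 0 to 2 and 0 to 3 in controls for calf, mouse and human serum, and 5 to 8, 1 to 3 and 0 to 0 with LPS. Mouse against human serum gave 1 to 6 in controls and 0 to 2 with LPS, mouse against calf serum 4 to 6 and 1 to 7, and human against calf serum 7 to 8 and 5 to 8. For the response it gave 0 to 1, 0 to 1 and 0 to 3 against no serum, 0 to 0 for mouse against human, 0 to 3 for mouse against calf and 0 to 3 for human against calf serum. Of 76 member calls, 23 were lost on leaving out some single array and 36 on leaving out some whole experiment, which leaves 2 arrays a group. With 3 arrays a group, a difference that did not pass is not shown to be absent.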
